A study of Mus musculus with 6 samples.

Results

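Peg10 and 9 other imprinted genes of the mouse, Sgce, Peg3, Ndn, Magel2, Nnat, Dlk1, Meg3, Grb10 and Cdkn1c, were followed through 6 RNA sequencing libraries of cortical neurons. They are 10 of the 54232 genes listed in the deposited count tables. Each was found by its Ensembl identifier, and all 10 passed the filter on low counts. Peg10 was picked because its level differed between PA + PS2 and the control in these libraries, so its values in the comparisons with PA + PS2 are a description and carry no test. The other 9 were picked as its neighbour Sgce and as well-known imprinted genes of other clusters, and the question was whether Peg10 moved with them.

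Imprinted genes are transcribed mainly from the copy inherited from a given parent. They lie in clusters in which a methylated control region, set in the germ line, decides which parental copy is active, and many of them are strongly transcribed in the brain. The counts do not separate the parental copies, so every value below is the sum over both. Of the 10 genes, Peg10, Sgce, Peg3, Ndn, Magel2, Nnat and Dlk1 are expressed from the paternal copy and Meg3 and Cdkn1c from the maternal copy. Grb10 is expressed from the maternal copy in most tissues and from the paternal copy in neurons.

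The neurons were wildtype and from CD1, an outbred mouse stock, in all 6 libraries. The 3 groups were a control, whose libraries are named for PDL, PA, named for IKVAV (a peptide sequence found in laminin), and PA + PS2, named for IKVAV plus PEDOT-S (a conducting polymer). Every group had 2 libraries, numbered as repeat 1 and repeat 2. Peptide amphiphile is the treatment given in the labels of all 6, also of the control. The sources used here do not give what PS2 stands for, the age of the mice, the time in culture, the doses, or whether the repeats were separate cultures or animals. The p-values therefore measure only the spread between these libraries.

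The libraries held 30714311 to 33923681 counts, so 1 CPM (a count scaled to the size of the library, with TMM factors) stands for about 30.7 to 33.9 counts. The summed level of 6 neuron markers ran from 6371 to 6984 CPM, and none of the 6 was at 0 in any library. Other cells were also present. The sum of 7 markers of dividing cells was at 61.1 and 124 CPM in the control (repeat 1, then repeat 2), 69.2 and 173 with PA, and 28.8 and 26.5 with PA + PS2. The sum of 7 neural progenitor markers was at 276 and 449, 323 and 560, and 212 and 238 CPM in the same order. All 7 markers of dividing cells, and 4 of the 7 progenitor markers, were lower in both PA + PS2 libraries than in both control libraries. Over all genes tested, 17.1% were lower in this sense.

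Entries of the RefSeq promoter table (build GRCm38.p6) matched 7 of the 10 genes, all but Peg10, Sgce and Cdkn1c. The stretches below are shown because Peg3 and Usp29 share a start region, as Peg10 and Sgce do, and because Meg3 and Nnat were the members that differed most between the repeats. All are on the plus strand, 5′ to 3′. Capitals mark CCAAT, TGACGTCA (a cyclic AMP response element) and GCATGCGC (the core of the site of NRF1), searched on both strands.
Peg3 to Usp29, chr7:6730432-6730577: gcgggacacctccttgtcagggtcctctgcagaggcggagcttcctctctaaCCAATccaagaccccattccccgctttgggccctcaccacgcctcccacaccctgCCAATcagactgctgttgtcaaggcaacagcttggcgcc
Meg3, chr12:109540896-109540995: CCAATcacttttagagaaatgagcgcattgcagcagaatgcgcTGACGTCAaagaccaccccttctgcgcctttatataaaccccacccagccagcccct
Nnat, chr2:157559978-157560077: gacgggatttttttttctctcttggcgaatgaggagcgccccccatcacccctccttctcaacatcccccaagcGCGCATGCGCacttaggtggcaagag

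The first stretch is the whole gap of 146 bases between the starts of Peg3, which is read leftward, and Usp29, which is read rightward. It holds CCAAT 2 times. The Meg3 stretch, of 100 bases, ends just before the gene's start and holds TGACGTCA once, with CCAAT at its left end. In the stretch of 100 bases before Nnat, GCATGCGC matches on both strands, and these 2 matches overlap. Over windows of 300 bases (250 before to 50 after the start) of 32851 promoters, 1.79% held TGACGTCA, 2.71% held GCATGCGC and 37.4% held CCAAT. Among 47 imprinted genes with an entry, these were found in 4 (Meg3, Peg3, Usp29 and Zdbf2), in 3 (Commd1, Ndn and Nnat) and in 19. A gene counted if any of its entries matched, so these counts of genes are not directly comparable with the shares of promoters. A match is a string of letters only, and no binding was measured.

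Peg10 was lower in PA + PS2 than in the other 4 libraries. It derives from a retroelement and codes for Gag-like and Pol-like proteins that the placenta needs. The gene lies on chromosome 6 (4747306 to 4760517, plus strand, GRCm38), and its exons overlap those of no other annotated gene. Peg10 was at 301 and 318 CPM in the control (repeat 1, then repeat 2, here and in the sentences that follow), at 296 and 284 CPM with PA, and at 213 and 220 CPM with PA + PS2. Both PA + PS2 libraries lay below all 4 others, and within each group the repeats lay close together. Group means were 310 ± 12.4 CPM (SD, n = 2) in the control, 290 ± 8.64 in PA and 216 ± 4.90 in PA + PS2. The mean of PA + PS2 was 0.699 times that of the control and 0.745 times that of PA.

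On the log2 scale, the fitted difference of Peg10 was -0.52 (SE 0.07) between PA + PS2 and control and -0.42 (SE 0.07) between PA + PS2 and PA. Within repeat 1 the differences were -0.50 and -0.48, and within repeat 2 they were -0.53 and -0.37. These values led to the choice of Peg10 and both share the PA + PS2 libraries, so no test is given for them. Over 23 other settings of the analysis the first ran from -0.56 to -0.47 and the second from -0.48 to -0.36. Between PA and control the difference was -0.09 (SE 0.07, 95% interval -0.32 to 0.13) and did not pass (edgeR's quasi-likelihood test, adjusted p = 1.00). The choice of Peg10 did not use the PA libraries but did use those of the control, so this comparison is not independent of it. In RNA from whole cultures, fewer cells of a type and less RNA per cell cannot be told apart. Progenitor and dividing cell markers were lower in PA + PS2 as well (above), and their part in the level of Peg10 was not tested.

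**Figure D1:**
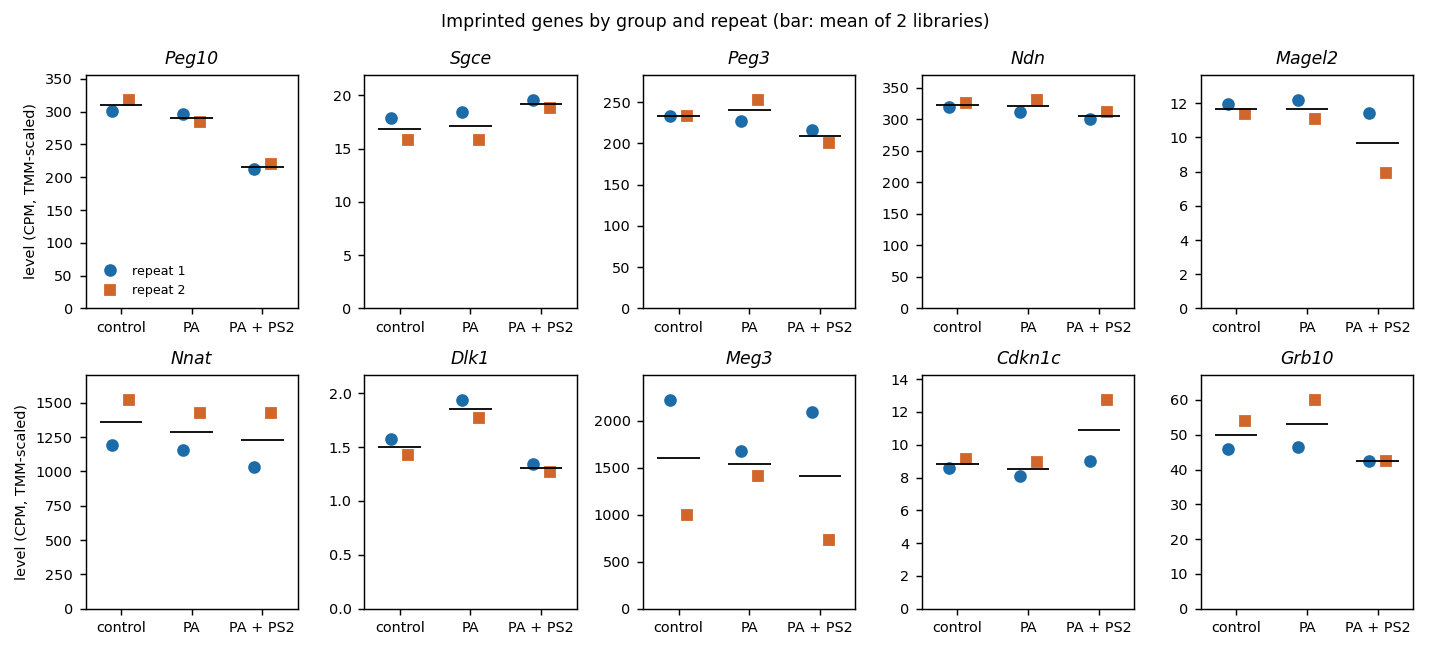
Level of each of the 10 imprinted genes in every library, in TMM-scaled CPM on a linear axis from 0 (circles repeat 1, squares repeat 2, bars the mean of 2 libraries). Peg10 lay at 213 and 220 CPM in PA + PS2 and at 284 CPM or more elsewhere, Sgce had no such drop, and Meg3 and Nnat were separated by repeat more than by group.

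Sgce, the nearest neighbour of Peg10, was not lower in PA + PS2. It codes for epsilon-sarcoglycan, a membrane protein whose loss from the paternal copy causes myoclonus-dystonia in humans. It lies on the minus strand (chromosome 6, 4674350 to 4747207), head to head with Peg10, with 98 bases between the ends of the annotated genes. Sgce was at 17.8 and 15.8 CPM in the control, 18.5 and 15.8 CPM with PA, and 19.6 and 18.8 CPM with PA + PS2. Both PA + PS2 libraries were the highest of the 6, which is the opposite order to Peg10. The log2 difference between PA + PS2 and control was 0.19 (SE 0.14, 95% interval -0.26 to 0.64) and did not pass edgeR's test (adjusted p = 0.925, and 0.640 with the repeat number as a block). Against PA it was 0.17 (95% interval -0.28 to 0.61, adjusted p = 0.924), and between PA and control 0.02 (95% interval -0.43 to 0.47, adjusted p = 1.00).

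The ratio of Peg10 to Sgce counts needs no scaling between libraries. It was 16.9 and 20.1 in the control, 16.0 and 18 with PA, and 10.9 and 11.7 with PA + PS2. The groups of PA + PS2 and control did not overlap, nor did those of PA + PS2 and PA, whereas PA and control did. The mean log2 ratio was 4.2 ± 0.18 (SD, n = 2) in the control, 4.09 ± 0.12 in PA and 3.49 ± 0.07 in PA + PS2. PA + PS2 minus control was -0.71, with -0.63 in repeat 1 and -0.78 in repeat 2, and PA + PS2 minus PA was -0.59. PA minus control was -0.11, and it was 0.01 without control 2. An exact permutation test of 2 libraries against 2 cannot give a two-sided p below 0.333, and none is given, since Peg10 was picked on its difference.

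The Peg3 and Usp29 pair, which shares the 146 bases shown above, served for comparison. Its ratio was 3.88 and 3.47 in the control, 3.60 and 3.81 with PA, and 4.0 and 3.07 with PA + PS2. The ratios of all 3 groups overlapped, and the mean log2 difference between PA + PS2 and control was -0.07. Unlike Peg10 and Sgce, this pair shares exon sequence on opposite strands with other annotated genes (14.3% of the exon bases of Usp29). The sources used here do not say whether the counting used strand.

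**Figure D2:**
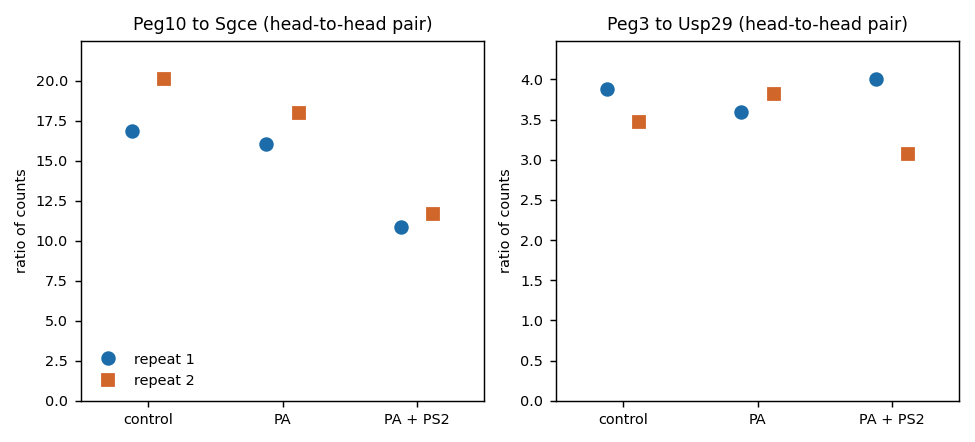
Ratio of counts in each library (circles repeat 1, squares repeat 2; linear axes from 0) for 2 pairs of imprinted genes that start head to head. The ratio of Peg10 to Sgce was 10.9 and 11.7 in PA + PS2 and at least 16.0 in the other libraries, and that of Peg3 to Usp29 overlapped among the 3 groups.

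No neighbour of Peg10 with a mean of at least 5 CPM was called. Within 1500 kb of its start, 14 genes passed the filter and 8 of them, Peg10 and Sgce included, had a mean of at least 5 CPM. Between PA + PS2 and control the log2 difference was -0.04 (SE 0.12) for Casd1, an enzyme that acetylates sialic acids, and 0.03 (SE 0.08) for Ppp1r9a, an actin-binding protein of synapses that is imprinted in some tissues. Bet1, a vesicle transport protein, was at -0.24 (SE 0.16), Dync1i1, a dynein chain of neurons, at 0.14 (SE 0.11), Vps50 at 0.09 (SE 0.09) and the collagen gene Col1a2 at -0.44 (SE 1.1). None of these 6 passed the test in any of the 3 comparisons, with or without the block.

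Pon2, a lactonase imprinted in the placenta, was the only other gene of this stretch that passed any of these fits, and it is weakly expressed. Pon2 was at 1.31 and 3.75 CPM in the control, 2.65 and 5.24 CPM with PA, and 1.02 and 0.780 CPM with PA + PS2. It fell by 2.02 on the log2 scale between PA + PS2 and PA with the repeat block (edgeR, adjusted p = 0.0346), where 1.52% of all genes were called. DESeq2 without a block called it as well (adjusted p = 0.0378). There, 1.22% of the 14951 genes to which DESeq2 gave an adjusted p were called. The main edgeR fit did not call Pon2 (adjusted p = 0.430). Pon2 did not pass any of these 3 fits in the other comparisons.

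**Figure D3:**
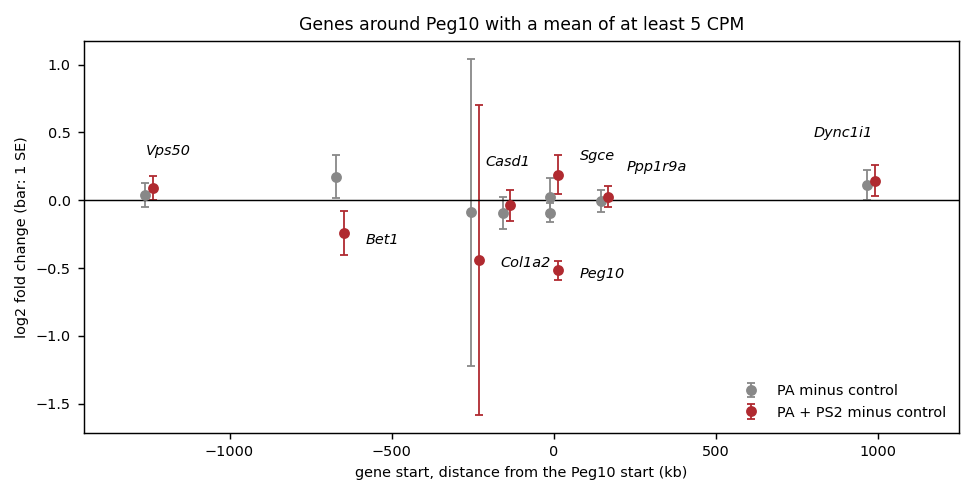
Fitted log2 fold change (bars, 1 SE) of the 8 genes with a mean of at least 5 CPM within 1500 kb of Peg10, against the distance of the gene's start from that of Peg10 in kb, for PA minus control (grey) and PA + PS2 minus control (red). In PA + PS2, Peg10 lay at -0.52 and Sgce, next to it, at 0.19, and Col1a2 had by far the widest bar.

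Peg3, Ndn and Magel2 are paternally expressed genes of chromosome 7. Peg3 codes for a zinc finger protein. It was at 234 and 233 CPM in the control, 227 and 253 CPM with PA, and 216 and 201 CPM with PA + PS2. Both PA + PS2 libraries were the lowest of the 6, by less than Peg10, with a log2 difference to the control of -0.16 (SE 0.08, 95% interval -0.42 to 0.09). Ndn, the gene of necdin, a growth suppressor of neurons in the MAGE family, was at 320 and 325, 311 and 331, and 300 and 310 CPM in the same order. Its difference to the control was -0.08 (SE 0.07, 95% interval -0.30 to 0.15), with PA + PS2 again below all 4 others. Magel2, a MAGE protein that assists a ubiquitin ligase on endosomes, was at 12 and 11.3, 12.2 and 11.1, and 11.4 and 7.89 CPM. Only repeat 2 of PA + PS2 stood low, and the groups overlapped. The difference of Magel2 to the control was -0.27 (SE 0.20, 95% interval -0.92 to 0.37). None of the 3 passed in edgeR against the control (adjusted p = 0.786, 0.955 and 0.925 for Peg3, Ndn and Magel2).

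Nnat and Dlk1 code for small or secreted regulators at the membrane. Nnat, the gene of neuronatin, a proteolipid of the endoplasmic reticulum, was at 1194 and 1520 CPM in the control, 1158 and 1421 with PA, and 1034 and 1427 with PA + PS2. The repeat 2 library was the higher one in every group, and the groups overlapped. The log2 difference between PA + PS2 and control was -0.14 (SE 0.19, 95% interval -0.76 to 0.48; adjusted p = 0.984). Dlk1, a ligand that resembles those of Notch, was the lowest of the 10, at 1.58 and 1.43 CPM in the control, 1.94 and 1.77 with PA, and 1.34 and 1.27 with PA + PS2. Its 3 groups did not overlap, but these levels rest on 39 to 60 counts per library. The difference of Dlk1 was -0.21 (95% interval -1.30 to 0.89) between PA + PS2 and control, 0.30 (-0.78 to 1.38) between PA and control and -0.51 (-1.60 to 0.58) between PA + PS2 and PA, and none passed.

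Cdkn1c and Grb10 restrain growth. Cdkn1c, the cyclin-dependent kinase inhibitor p57, was at 8.58 and 9.11 CPM in the control, 8.11 and 8.97 CPM with PA, and 9.02 and 12.7 CPM with PA + PS2. The highest value was repeat 2 of PA + PS2, and PA + PS2 and control overlapped. The log2 difference between them was 0.30 (SE 0.21, 95% interval -0.36 to 0.96; adjusted p = 0.905). Of its exon bases 30.7% lie opposite exons of another annotated gene, so its counts are uncertain. Grb10, an adaptor that dampens insulin and growth factor receptors, was at 46.0 and 53.9, 46.4 and 60.0, and 42.6 and 42.5 CPM. PA + PS2 lay below the other 4 libraries, with a difference to the control of -0.23 (SE 0.14, 95% interval -0.67 to 0.20; adjusted p = 0.861).

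Meg3, a maternally expressed long noncoding RNA, varied more between repeats than between groups. It was at 2223 and 995 CPM in the control, 1678 and 1409 CPM with PA, and 2092 and 729 CPM with PA + PS2. Repeat 2 was below repeat 1 in all 3 groups, by a small margin in PA, and the groups overlapped. The difference between PA + PS2 and control was -0.19 with an SE of 0.70 (95% interval -2.41 to 2.03; adjusted p = 0.999). Between PA and control it was -0.06, and 0.09 with the block. With the block and without PA 1 that value became 0.59, and without PA 2 it became -0.51. These fits leave 1 PA library, so only the size of the difference is given. The direction of Meg3 between PA and control therefore hung on which PA library was kept.

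Levels of different genes can be compared only per length of exon. Over the 6 libraries the mean was 707 CPM per kb for Nnat, 85.6 for Ndn, 84.1 for Meg3, 40.8 for Peg10 and 17.1 for Peg3. Grb10 (5.34), Cdkn1c (4.62), Magel2 (2.37), Sgce (1.67) and Dlk1 (0.275) followed. Peg10 thus stood above its neighbour Sgce on this scale in each group, at 46.4 against 1.59 CPM per kb in the control, 43.5 against 1.61 in PA and 32.4 against 1.81 in PA + PS2. Ndn and Meg3 lay closer to each other than the spread of Meg3 between libraries.

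Counted together, 0 of the 10 genes passed edgeR's test in any of the 3 comparisons, in which it called 0 of 17299 genes (0%) each time. At an unadjusted p under 0.05 there were 0 of the 10 between PA and control, 1 (Peg10) between PA + PS2 and control, and 3 (Peg10, Peg3 and Grb10) between PA + PS2 and PA. The shares of all genes were 0.595%, 6.81% and 7.7%. With the repeat number as a block, the calls were 0, 1 and 1 of the 10, against 0%, 0.699% and 1.52% of all genes, and the 1 was Peg10 each time. DESeq2 gave the same 0, 1 and 1, against 0%, 0.875% and 1.22% of the genes to which it gave an adjusted p (17299, 14280 and 14951). Nothing is read from the calls of Peg10, on which it was picked, and the comparisons with PA + PS2 share libraries.

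Leaving out single libraries moved these blocked counts. These fits have 1 residual degree of freedom of their own. For PA + PS2 against control, 0 of the 10 were called without control 2, and Meg3 joined Peg10 without PA 1 or without PA 2. Over all genes that comparison called 4 without control 2, 15 without PA + PS2 2, 816 without PA 2, 874 without PA 1 and 942 without PA + PS2 1. Between PA + PS2 and PA, the log2 difference without PA 1 was -0.30 for Peg3, -0.44 for Grb10 and -0.86 for Meg3. Without PA + PS2 1, that of Grb10 was -0.46. These fits leave 1 library in a group, so no calls of this comparison are read.

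By position rather than by test, 5 of the 10 genes (Peg10, Peg3, Ndn, Dlk1 and Grb10) were lower in both PA + PS2 libraries than in both control libraries, and 1 (Sgce) was higher in both. Over all genes tested 17.1% were lower in this sense and 16.6% higher. Leaving Peg10 aside, it was 4 of 9. Between PA and control 1 of the 10, Peg10, lay lower in both libraries and 1, Dlk1, higher, against 9.69% and 12.1% of all genes. In PA + PS2 against PA 5 of the 10 lay lower and 2 higher, against 18.4% and 16.7% of all genes.

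The wider set of imprinted genes shared the lean toward lower levels in PA + PS2, by small amounts. Of 59 imprinted genes looked up, 52 passed the filter, and 37 of the 52 had a log2 difference below 0 between PA + PS2 and control, against 8317 of the 17299 genes tested. Their median was -0.07, against 0.01 over all genes. Both PA + PS2 libraries lay below both control libraries for 16 of the 52 (30.8%, background 17.1%), and above them for 3 (5.77%, background 16.6%). Without Peg10 the lower count was 15 of 51 (29.4%). Between PA and control 24 of the 52 were below 0, and 4 lay below in both libraries (7.69%, background 9.69%). For PA + PS2 against PA, which shares the PA + PS2 libraries, 38 were below 0 and 18 lay below in both (34.6%, background 18.4%). With library totals or RLE scaling the count of 16 became 17. When only 1 library of a group was kept, it was 30 without PA + PS2 1 (background 35.1%), 23 without PA + PS2 2 (32.1%), 28 without control 1 (31.2%) and 25 without control 2 (33.5%).

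None of the 42 imprinted genes outside the 10 passed between PA + PS2 and control, in edgeR with or without the block or in DESeq2, and 6 of them had an unadjusted p under 0.05 in edgeR (background 6.81%). The 2 lowest with a mean of at least 5 CPM were Mest and Kcnk9. Mest, a paternally expressed gene of embryonic mesoderm, was at 65.7 and 97.7 CPM in the control, 65.5 and 108 with PA, and 51.7 and 42.1 with PA + PS2. Both PA + PS2 libraries were the lowest, and the other groups differed widely between repeats (log2 difference -0.80, SE 0.31). Kcnk9, a maternally expressed potassium channel of neurons, was at 223 and 218, 189 and 237, and 168 and 155 CPM, with PA + PS2 lowest (log2 difference -0.45, SE 0.11; edgeR adjusted p = 0.458, and 0.0814 with the block). The 2 highest were H13, a signal peptide peptidase, at 0.19 (SE 0.08), and Commd1, a regulator of copper and endosomes, at 0.17 (SE 0.26).

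Split by the copy they are expressed from, paternal genes were below 0 more often than all genes tested (48.1%), and the share of maternal genes was near it. Of 27 paternal genes tested, 23 had a difference below 0 between PA + PS2 and control (median -0.14), and 10 lay below in both libraries (37.0%, background 17.1%). They include Peg10, and also Plagl1, a zinc finger protein (-0.43, SE 0.17), Nap1l5 (-0.32, SE 0.12), Zdbf2 (-0.27, SE 0.12) and Inpp5f, a lipid phosphatase (-0.16, SE 0.09). Of 24 maternally expressed genes, 13 were below 0 (median -0.04), and 5 lay below in both libraries (20.8%, the same background). Whether the paternal and the maternal genes differed was not tested, and the split by parental copy was made after the values were seen. Progenitor and dividing cell markers also lay lower in PA + PS2, and their part in these counts was not tested.

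Between the repeats, Nnat and genes of the Meg3 cluster differed while Peg10 did not pass the test. In the fit with the block, 847 of 17299 genes (4.9%) differed between repeat 2 and repeat 1, a contrast added after the values were seen. Of the 10 genes only Nnat passed, and it was higher in repeat 2 by 0.37 on the log2 scale (SE 0.06; edgeR, adjusted p = 0.00334). Peg10 differed by 0.02 (SE 0.05) and Sgce by -0.15 (SE 0.10), and neither passed. Meg3 differed by -0.98 (SE 0.33; adjusted p = 0.305).

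Meg3 lies in a cluster on chromosome 12 with the maternally expressed RNAs Rian and Mirg and the paternally expressed genes Dlk1, Rtl1 and Dio3. Rtl1, a retroelement-derived gene like Peg10, fell in repeat 2 by 1.19 on the log2 scale (adjusted p = 0.0221), from 7.0 to 2.0 CPM in the control, 5.59 to 4.23 in PA and 6.69 to 2.53 in PA + PS2. Mirg, which hosts microRNAs, fell by 0.87 (adjusted p = 0.0221), from 28.5 to 11.1, 19.5 to 14.9 and 23.9 to 13.3 CPM. In Meg3, Mirg and Rtl1 alike the step was smallest in PA. Rian (-0.24, adjusted p = 0.0532), Dlk1 (-0.12) and Dio3 (0.48) did not pass. Rtl1 has annotated microRNAs on the opposite strand over 8.12% of its exon bases.

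Outside that cluster, H19 (by 1.40, adjusted p = 0.0409) and Igf2 (by 4.15, adjusted p = 0.00271) fell in repeat 2. Both are growth genes of mesodermal tissue. Igf2 ranged over 0.983 to 1.63 CPM in the repeat 1 libraries and over 0.0325 to 0.0894 CPM in those of repeat 2. The repeat 2 values of Igf2 rest on 1 to 3 counts per library, so the size of its fall is uncertain. Of its exon bases 62.8% are shared on the same strand with other annotated genes. Gnas, the G protein alpha subunit, rose by 0.43 (adjusted p = 0.0100) and Ago2, a microRNA effector, by 0.26 (adjusted p = 0.0425). With Nnat, 4 of the 52 imprinted genes were called lower (background 2.96%) and 3 higher (background 1.94%). The sum of 7 fibroblast and meningeal markers fell along with Igf2, from 77.6 to 58.2 CPM in the control, 87.3 to 43.9 in PA and 65.8 to 16.7 in PA + PS2. Not every marker fell in every group: Dcn rose from 4.26 to 9.34 CPM in PA, and Pdgfrb from 3.63 to 4.44 CPM in the control. The sum of 4 choroid plexus markers went from 12.3 to 1.82, 5.97 to 1.45 and 25.6 to 1.1 CPM. Most of this sum in repeat 1 was 1 marker, Ttr, at 10.3, 5.10 and 23.6 CPM in the same order of groups. Kl, at 0.284 CPM or less, was higher in repeat 2 in all 3 groups, and Clic6 was higher there in PA. The part of these cells in the repeat differences was not tested.

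**Figure D4:**
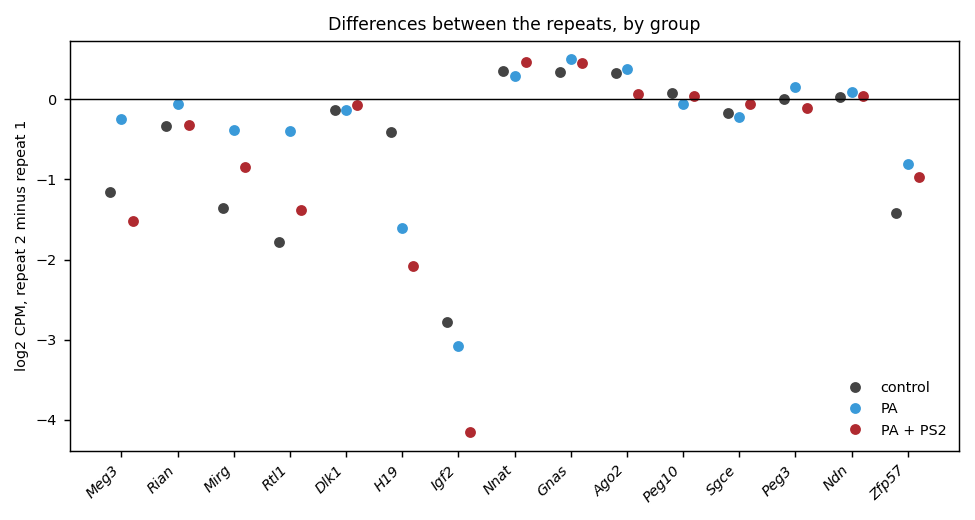
Difference in log2 CPM between repeat 2 and repeat 1 in each group (grey control, blue PA, red PA + PS2) for genes of the Meg3 cluster, other imprinted genes and Zfp57, a zinc finger protein that protects imprints. Igf2 lay lowest, Meg3, Mirg and Rtl1 were lower in repeat 2 with the smallest step in PA, Nnat and Gnas were higher, and Peg10, Sgce, Peg3 and Ndn lay near 0.

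None of the imprinted genes looked up was among the 5 genes whose log2 CPM most resembled that of Peg10 over the 6 libraries. Nothing is read from this, since the correlations share the low PA + PS2 pair on which Peg10 was picked. Among 10775 other genes with a mean of at least 5 CPM, the highest Pearson correlations were those of Gadd45g (0.987), a stress-inducible growth arrest gene, Chm (0.984), Dennd5a (0.982), Tmed5 (0.978) and Epas1 (0.977), the hypoxia-inducible factor 2 alpha. Gadd45g was at 7.84 and 8.01 CPM in the control, 7.91 and 7.67 with PA, and 4.97 and 5.10 with PA + PS2, which is the same order of groups as for Peg10. After the mean of each repeat was subtracted, Idh2 (0.999), Sgip1 (0.998), Kcnf1 (0.996), Morf4l2 (0.993) and Ctnnal1 (0.992) led. These correlations rest on 6 points that fall into a low pair and a higher group of 4, and they describe these libraries only.

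The imprinted genes took very different places on this measure. Over the 6 libraries and after centring by repeat, in that order, the correlation with Peg10 was 0.834 and 0.836 for Kcnk9, 0.769 and 0.803 for Mest, 0.757 and 0.892 for Inpp5f, and 0.432 and 0.884 for Snrpn, which encodes a splicing protein. Within the 10 it was 0.742 and 0.742 for Peg3, 0.735 and 0.874 for Ndn, 0.644 and 0.737 for Grb10, 0.602 and 0.781 for Magel2, 0.349 and 0.851 for Nnat and 0.133 and 0.334 for Meg3. The order of the genes thus changed with centring, and among these 6 Nnat moved the farthest. Values below 0 on both measures included those of Cdkn1c (-0.612 and -0.787), Sgce (-0.714 and -0.887), H13 (-0.892 and -0.893) and Commd1 (-0.327 and -0.959). Gnas (-0.245 and -0.854), Igf2r, Tssc4, Ppp1r9a, Mirg, Cd81 and Kcnq1ot1 were below 0 on both as well. All of these values share the low PA + PS2 pair on which Peg10 was picked, so nothing is read from their ranks.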

How the data were processed

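The authors deposited raw counts, 1 table per library with a whole number for each Ensembl gene, per the file headers. Tools named in the submitters' processing notes, with no roles, are STAR 2.7.5 and HTSeq 2.0.2, besides cutadapt 4.2 and DESeq2 1.14.1, and the build is mm10. The sources used here give no settings, annotation release or strandedness. A TruSeq Total RNA kit was used, per the labels' protocols, while polyadenylated RNA stands in the molecule label. Symbols and coordinates came from GENCODE M21 (GRCm38): 153 of 54232 genes had no symbol.

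The main test was edgeR's quasi-likelihood F test (version 4.0.16, R 4.3.3, robust, TMM scaling) in 1 model of all 6 libraries with 3 residual degrees of freedom, over 17299 genes left by filterByExpr, with Benjamini-Hochberg adjusted p under 0.05 as threshold. Intervals use 3 degrees of freedom. Standard errors come from the fold change and F. Log2 CPM used a prior count of 2. The model was first tested on simulated data. Replicates differed beyond sampling noise.

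The repeat numbers were taken to pair the libraries, from the data and not the labels: same-numbered deviations correlated at 0.346 (control and PA), 0.361 (control and PA + PS2) and 0.213 (PA and PA + PS2). The blocked fit has 2 residual degrees of freedom, and its values stand beside results it changed. The T number in the library names is shared by the repeat 1 libraries but not by those of repeat 2.

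The 10 genes and all lists were chosen with earlier results of these data known; motifs, the parental split, the repeat contrast and Zfp57 were chosen after the values were seen. Named besides the 10 were genes of the lists that passed with or without the block, the 2 highest and 2 lowest of a list with a mean of at least 5 CPM, genes of a member's cluster, and the 5 genes most correlated with Peg10. Alternatives were other scalings (library totals, RLE), no filter, a filter of 50 counts in 2 libraries, DESeq2 1.42.0, 2 groups alone, the block, each library left out, and combinations with the block, which were added after seeing the data.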

Additional observations from a re-analysis of the deposited data

How the results depend on the processing

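The main test called 0 of the 10 genes, so no call could be lost, and 616 of 690 alternative values of the 10 fold changes kept direction and side of the threshold, 31 gained a call and 43 changed sign. The repeat numbers were taken to pair the libraries, from the data and not the labels, and the replicate block changed no call of the 10 other than that of Peg10. For the results that moved, the cause was not tested. Genes called between PA and control (0) became 2 with no filter, 2 with the 2 groups alone and the block, and 1 with DESeq2 and the block. Between PA + PS2 and control (0) they became 425 with no filter, 125 with DESeq2, 121 with the block, and with the block 705 for the 2 groups alone, 275 in DESeq2, 53 with at least 50 counts in 2 libraries and 112 with RLE. Between PA + PS2 and PA (0) they became 501, 183, 263, 131, 365, 165 and 245 under the same 7 settings. Of the 10 genes, 1 (Peg10) was called under each of these 7 in both comparisons. With 1 library left out, where the lone library is assumed to vary like the others, 0 to 35 genes and 0 to 1 of the 10 were called between PA and control, 0 to 942 and 0 to 2 between PA + PS2 and control, and 0 to 1021 and 0 to 4 between PA + PS2 and PA. The log2 ratio of Peg10 to Sgce ran from -0.24 to 0.012 between PA and control (0.01 without control 2), from -0.83 to -0.58 between PA + PS2 and control and from -0.68 to -0.51 between PA + PS2 and PA. Signs changed in these ways. Between PA and control Magel2 became 0.0019 with library totals, and Meg3 became 0.090 with the block and, with the block, 0.044 for the 2 groups alone, 0.084 in DESeq2, 0.081 with at least 50 counts in 2 libraries and 0.083 with RLE. With 1 library left out, with or without the block, the fold changes between PA and control ran from -0.10 to 0.12 for Sgce, -0.075 to 0.14 for Peg3, -0.065 to 0.034 for Ndn, -0.13 to 0.12 for Magel2, -0.24 to 0.11 for Nnat, -0.53 to 0.63 for Meg3, -0.18 to 0.066 for Cdkn1c and -0.12 to 0.26 for Grb10. Between PA + PS2 and control they ran from -0.39 to 0.068 for Nnat and -1.15 to 0.50 for Meg3, and between PA + PS2 and PA from -0.32 to 0.15 and -1.07 to 0.44. Imprinted genes lower in both libraries numbered 13 to 19, 23 to 30 and 23 to 33 with 1 library left out, against 4, 16 and 18.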

Other observations

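Relatives of the 10 genes outside the imprinted set were counted in the same way. Of all genes, edgeR without the block called 0% in each comparison. Between PA + PS2 and control, 0.699% were called with the block and 0.875% in DESeq2. Between PA + PS2 and PA these shares were 1.52% and 1.22%. The DESeq2 shares are of the 14280 and 14951 genes to which it gave an adjusted p. At such shares short lists hold few calls, so nothing is read from a count of 0. Over all genes tested, 48.1% were below 0 between PA + PS2 and control and 6.81% had an unadjusted p under 0.05 in edgeR. Of 19 genes derived from retroelement gag sequences and found in the tables, 17 passed the filter, and 0 were called in the 3 comparisons by edgeR, by edgeR with the block or by DESeq2 (1 had an unadjusted p under 0.05 in edgeR between PA + PS2 and control). Their median log2 difference between PA + PS2 and control was 0.04, with 7 below 0 and 10 above. Arc, a synaptic capsid protein, was at 7.42 and 4.77 CPM in the control, 6.43 and 5.46 with PA, and 5.42 and 3.25 with PA + PS2, the lowest of the list with a mean of at least 5 CPM (-0.49). Pnma3 (-0.23) came next, and Pnma2 (0.18) and Rtl8b (0.15) were the highest. In the MAGE family, to which Ndn and Magel2 belong, 0 of 8 were called, with a median of -0.07 between PA + PS2 and control (0 had an unadjusted p under 0.05). Maged1, the most abundant, was at 774 and 763, 788 and 766, and 788 and 722 CPM.

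Among 7 inhibitors of cyclin-dependent kinases, 0 were called, 5 were below 0 between PA + PS2 and control (median -0.14), and 2 had an unadjusted p under 0.05 in edgeR, against 48.1% and 6.81% of all genes. Cdkn1b (p27) was at 191 and 206 CPM in the control, 188 and 200 with PA, and 159 and 178 with PA + PS2, where Cdkn1c was highest. Of the sarcoglycan and dystroglycan complex, to which Sgce contributes, 8 of 10 genes passed the filter, and edgeR without the block called 0 of them. Dtna, the gene of alpha-dystrobrevin, fell by 0.43 on the log2 scale between PA + PS2 and PA with the block (edgeR, adjusted p = 0.0337, with 1.52% of all genes called; 0.352 without the block), from 95.8 and 112 CPM to 80.7 and 73.0. Sgcb, the beta-sarcoglycan gene, lay at 43.9 to 48.5 CPM throughout.

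Of 14 genes that set or keep DNA methylation and imprints, 12 passed the filter and 0 were called in the 3 comparisons; 2 had an unadjusted p under 0.05 between PA + PS2 and control, Trim28 (0.19) and Tet1 (0.27), against 6.81% of all genes. The lowest were Uhrf1 (-1.5), a partner of Dnmt1 in dividing cells, and Zfp57 (-0.12, SE 0.69). Zfp57, which binds methylated imprint control regions, differed more between the repeats and fell in repeat 2 by 1.07 on the log2 scale (edgeR with the block, adjusted p = 0.00563). It was at 300 and 112 CPM in the control, 226 and 128 with PA, and 251 and 128 with PA + PS2, and it was the only gene of this list to pass the test between the repeats. Uhrf1 rose in repeat 2 by 0.995 on the log2 scale and did not pass (edgeR with the block, adjusted p = 0.125).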
